A study of Solanum lycopersicum with 10 samples.

Results

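Wounded tomato plants carrying an antisense copy of an Rboh gene were compared with wounded wild type plants. The comparison takes the 5 arrays that the labels assign to systemic wounded leaf, 3 from the mutant and 2 from the wild type, of 10 arrays in the series. The other 5 arrays hold leaves of unwounded plants, 2 from the mutant and 3 from the wild type, and are used below only to set the difference in wounded plants beside that in unwounded plants. Total RNA of each leaf sample was hybridised on a two-colour cDNA array together with a reference pooled from every sample of the series, and each value is a log2 ratio of the leaf sample and that pool. The mutant is described as an antisense of the Rboh gene, and the wild type carries no named alteration. Both groups compared share the wounding. Which Rboh gene was targeted, the promoter, the number of antisense lines, the cultivar, plant age, the time after wounding and the position of the sampled leaf are not stated in the labels. The labels call the groups systemic wounded and say only that the leaf came from a wounded plant. Separate plants are not stated for the replicates, and the p-values cover array-to-array spread, some or all of it possibly technical.

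Respiratory burst oxidase homologs (Rboh) are plasma membrane NADPH oxidases of plants. They pass electrons from NADPH inside the cell to oxygen outside it, and the superoxide made is turned into hydrogen peroxide. In tomato, injury to a leaf sets off systemin and jasmonate signalling that raises defence proteins such as proteinase inhibitors also in leaves that were not injured, and hydrogen peroxide is known as a signal within that response. An antisense transgene makes RNA complementary to its target and is used to lower the target's transcript. The question put to these 5 arrays is which leaf transcripts differ between plants with and without the antisense gene once both have been wounded.

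The files do not pair clone names with genes. Of 11151 clone names tested, 0 matched the RefSeq gene table of tomato (assembly SLM_r2.1), and 2 further rows carry a gene name. The transcript of the antisense target could not be looked up, so the labels were not checked against it. No row of the lists for Rboh oxidases, wound defence proteins, jasmonate synthesis and signalling or oxidative stress enzymes could be found by name. In the photosynthesis list 2 of 14 members had a row. These are the rows Carbonic_anhydrase and Chlorophyla/bbindingprotein, both proteins of the leaf chloroplast. A ratio to a pool gives no level of its own, so these leaf markers do not show whether the tissue matches its label, and 0 of 3 trichome, 0 of 2 root and 0 of 3 fruit markers had a row of their name.

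The labels do not state which way the ratio runs: they place the leaf sample in channel 2 and the pool in channel 1 and name no dyes. Directions below are for leaf over pool, and with the sign turned every "higher" reads "lower". Values are given with each array's median over the 11153 tested rows set to 0. Before this the 5 medians lay between -0.01 and 0.03, and the interquartile ranges ran from 0.44 to 0.52. Across clones, which are not independent replicates, the 2 wild type arrays correlated at 0.43, and the mutant arrays correlated at 0.19 (replicates 1 and 2), 0.33 (1 and 3) and 0.27 (2 and 3). The 6 correlations between a mutant and a wild type array lay between -0.22 and 0.09. Signal intensities were not analysed here, and precision is limited by the 5 arrays.

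In wounded plants 119 clones differed between the genotypes, 1.07% of those tested. In the mutant 76 were higher (0.681%) and 43 were lower (0.386%). Turning the sign makes this 43 higher and 76 lower. The differences among the 76 ran from 1.23 to 3.66 on the log2 scale with a median of 1.64, which is 3.12-fold. Among the 43 they ran from -1.25 to -5.25 with a median of -1.89, which is 3.71-fold. The median difference over all clones was 0.00. In whole leaves, fewer cells of a type and less RNA per cell cannot be told apart. The test was limma's moderated test on these 5 arrays, two-sided, and a clone counts as higher, lower or called where its Benjamini-Hochberg adjusted p over all 11153 rows was under 0.05. At an unadjusted p under 0.05 there were 1045 higher and 799 lower clones, where 557.6 in both directions would be reached by chance. Quantile normalization in place of median centring left 48 higher and 44 lower, so that the share of higher clones among the calls fell from 63.9% to 52.2%. Rows marked as failed, left out of these counts, passed at about the same share when kept: 2 of 193 (1.04%), beside 1.06% of the clones. What a failed row measures is not stated, and what this share means for the calls was not tested.

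**Figure D1:**
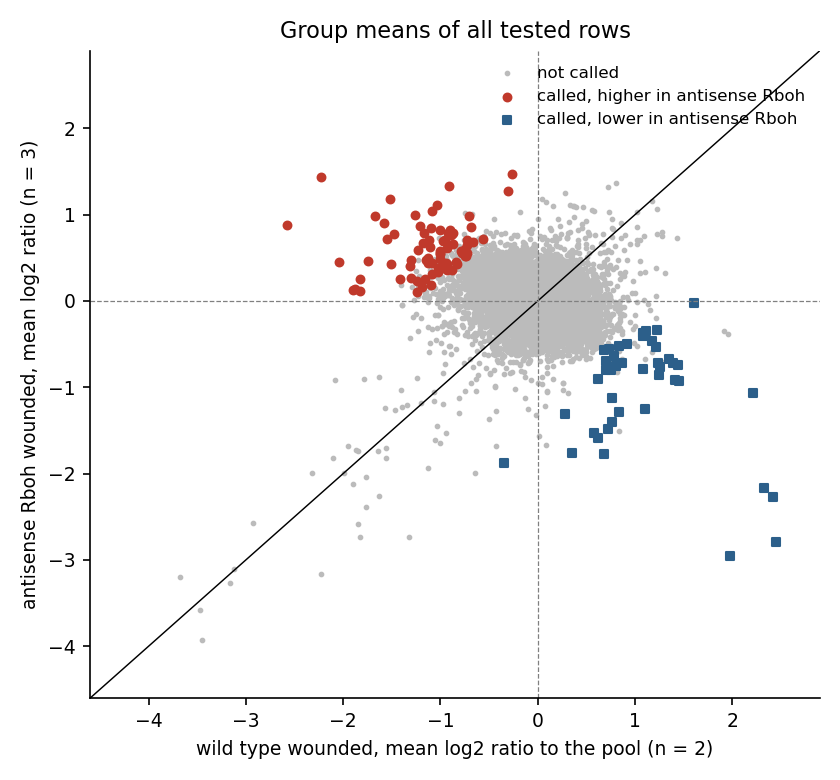
Mean log2 ratio to the pool of each of the 11153 tested rows in wounded wild type (horizontal axis, 2 arrays) and wounded antisense Rboh plants (vertical axis, 3 arrays), with the line of equal means and dashed lines at 0. The 76 clones called higher in the mutant (circles) lie to the upper left, and all but 1 of the 43 called lower (squares) to the lower right.

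The means of called clones mostly lay on opposite sides of the pool, as did those of 96.3% of all rows that differed at least 2-fold. The pool holds samples of both genotypes, and whether this places clones that differ strongly on either side of it was not tested. All 76 higher clones had a mean above 0 in the mutant and below 0 in the wild type, as the plot of group means shows. Of the 43 lower clones, 42 had a mean below 0 in the mutant and above 0 in the wild type. The remaining one was cLER7J9, named here after its values were seen. It stood at -1.53, -2.12 and -1.97 on the mutant arrays of replicates 1 to 3 and at -0.34 and -0.36 on the wild type arrays, so it was below the pool on every array. Its difference was -1.53 (SE 0.26, limma adjusted p = 0.0261). By limma its adjusted p was 0.0785 with trend and robust eBayes and 0.0806 without mutant replicate 3. The call also rested on having both wild type arrays.

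The largest difference with the mutant higher was that of clone cLED6A13. Its log2 ratio was 1.84, 1.27 and 1.21 on the mutant arrays of replicates 1 to 3, and -2.16 and -2.29 on the wild type arrays of replicates 1 and 2. Every mutant array lay above the pool and both wild type arrays lay more than 4-fold below it. The means were 1.44 ± 0.35 (SD, n = 3) and -2.23 ± 0.09 (SD, n = 2), a difference of 3.66 (SE 0.27, limma adjusted p = 0.000465) or 12.7-fold. Next came clone cLED6G20, with 0.95, 1.14 and 0.56 on the mutant arrays and -2.40 and -2.76 on the wild type arrays. The groups again stood apart, by 2.96 between the lowest mutant and the highest wild type array. The difference was 3.47 (SE 0.27, limma adjusted p = 0.000475). These 2 were the only clones at least 8-fold higher in the mutant, and both names carry plate number 6 of the cLED clones.

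In the other direction 5 clones were at least 8-fold lower in the mutant, and all 5 were called. Clone cLED4L7 stood at -4.17, -2.20 and -2.02 on the mutant arrays and at 2.62 and 2.29 on the wild type arrays. Its lowest value was that of mutant replicate 1, and the wild type arrays were both more than 4-fold above the pool. The difference was -5.25 (SE 0.54, limma adjusted p = 0.00238), 38.1-fold. Clone cLED11M5 stood at -3.89, -1.94 and -3.04 on the mutant arrays and at 1.99 and 1.96 on the wild type arrays, which nearly coincided. The difference was -4.93 (SE 0.46, limma adjusted p = 0.00149), 30.4-fold. The mutant arrays of these clones were farther apart, with SDs of 1.19 and 0.98, than the wild type arrays, with SDs of 0.23 and 0.02.

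The other three of the 5 are named because the count is small, after their values were seen. Clone cLED4I5 stood at -2.55, -1.54 and -2.74 on the mutant arrays and at 2.50 and 2.34 on the wild type arrays, with a difference between the means of -4.69 (SE 0.35, limma adjusted p = 0.000465). The values of cLED4L8 stood at -2.69, -1.15 and -2.67 against 2.31 and 2.34, and the means differed by -4.49 (SE 0.43, limma adjusted p = 0.00151). In both, mutant replicate 2 was the highest of the mutant arrays by about 1 log2 unit or more, yet lay more than 3 units below the wild type. Clone cLED25O16 stood at -1.28, -0.78 and -1.13 against 1.99 and 2.45, a difference of -3.28 (SE 0.27, limma adjusted p = 0.000588). By their names cLED4L7 and cLED4L8 come from neighbouring wells of plate 4, and cLED4I5 from the same plate. Whether these names stand for the same gene was not tested, so they may not be independent.

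**Figure D2:**
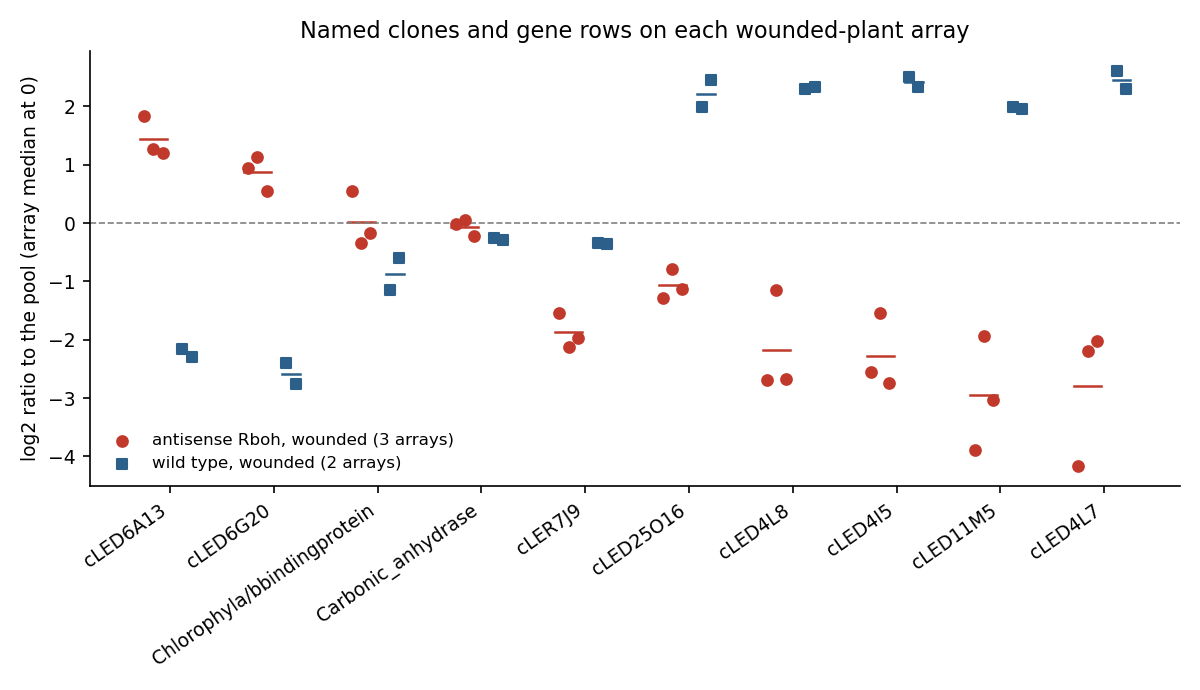
Log2 ratio to the pool of the 8 named clones and the 2 rows with a gene name on each of the 5 arrays of wounded plants, ordered by the difference, with a short line at each group mean. Mutant arrays are circles and wild type arrays squares. The groups are widest apart at cLED4L7, with a difference of -5.25, and closest at Carbonic_anhydrase, with 0.21.

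Neither row with a gene name passed the test. Chlorophyla/bbindingprotein, a light-harvesting protein of the photosystem antennae, stood at 0.55, -0.35 and -0.16 on the mutant arrays and at -1.15 and -0.60 on the wild type arrays. The groups did not overlap, as in 16.7% of all tested rows with the mutant higher, and the mutant arrays spanned both sides of the pool. The difference was 0.89 (SE 0.32, unadjusted p = 0.0195, limma adjusted p = 0.213). Carbonic_anhydrase, the enzyme that interconverts carbon dioxide and bicarbonate, stood at -0.02, 0.05 and -0.21 against -0.26 and -0.28. Here too the groups did not overlap, with 0.04 between the nearest arrays. All 5 arrays were within 0.28 of the pool, and the difference was 0.21 (SE 0.24, limma adjusted p = 0.715).

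Over the 76 higher clones, the median log2 ratio was 0.61, 0.47 and 0.62 on the mutant arrays of replicates 1 to 3, and -1.06 and -1.02 on the wild type arrays. Over the 43 lower clones it was -0.78, -0.91 and -0.75 on the mutant arrays, and 1.00 and 0.97 on the wild type arrays. The 3 mutant arrays thus had similar medians in each list, as did the 2 wild type arrays, and the wild type arrays lay farther from the pool than the mutant arrays. The arrays of the groups did not overlap in any of the 119 clones, beside 33.9% of all tested rows (16.7% with the mutant higher and 17.1% with it lower). The median distance between the nearest arrays of the groups was 1.18 for the higher and 1.39 for the lower clones, and the smallest was 0.78.

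**Figure D3:**
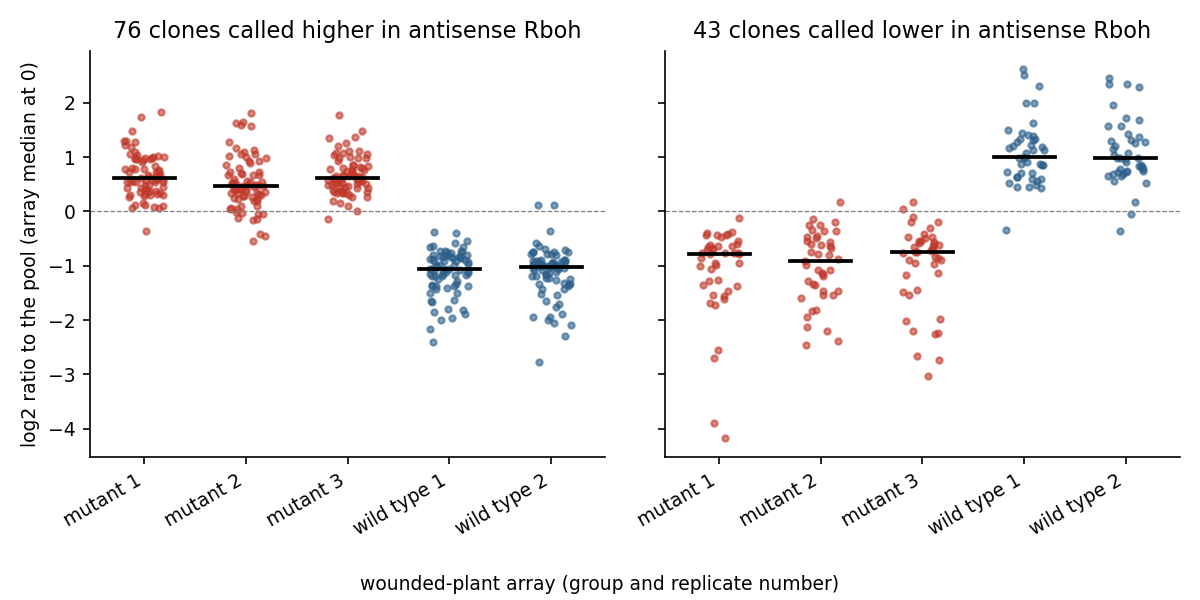
Log2 ratio to the pool of the 76 clones called higher (left) and the 43 called lower (right) in wounded antisense Rboh plants, on each of the 5 arrays, with a black line at the median. The medians lie between 0.47 and 0.62 for the higher and between -0.91 and -0.75 for the lower clones on the mutant arrays, and near -1 and 1 on the wild type arrays. The clones were chosen by this difference, so the separation is a description.

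More clones differed in size than passed the test. The group means differed at least 2-fold for 320 clones with the mutant higher (2.87%) and for 164 with it lower (1.47%). Of these, 76 and 43 were called, so every called clone differed at least 2-fold. The 244 higher clones past 2-fold that were not called had a median residual SD of 0.41, and the 121 lower ones had 0.38, beside 0.28 for the called clones and 0.29 for all tested rows. At 4-fold the counts were 17 higher, all called, and 23 lower, of which 20 were called. At 16-fold 0 were higher and 4 lower. Of those 4, cLED4L7, cLED4L8 and cLED4I5 share a plate by their names and may not be independent. On these few clones the far end of the differences lay lower in the mutant, while more clones were higher past 2-fold. These counts also moved with single arrays: they were 498 higher and 321 lower without wild type replicate 1, and 308 and 252 without mutant replicate 3.

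The letters that open a clone name sort the clones into groups, 17 of which held at least 50 tested clones. Of the 2212 cLEC clones 22 were called higher (0.995%) and 4 lower (0.181%). Of the 2512 cLED clones 20 were higher (0.796%) and 13 lower (0.518%). The cLED group, 22.5% of all tested rows, held all 7 of the clones that differed at least 8-fold. Some of these share a plate and may not be independent. Among the 881 cLEG clones 1 was higher and 4 were lower, with a median difference of -0.04 over the group. Of the 956 cLEF clones 6 were higher and 1 lower, of the 973 cLET clones 7 and 6, of the 811 cLER clones 6 and 3, of the 779 cLEM clones 5 and 4, and of the 713 cLES clones 3 and 3. The highest share among the 17 groups was 2.67% of the 150 cTOD clones, a count of 4, and 3 groups (cLEN, cLEX and cTOC) held 0 calls. These shares stand beside 0.681% higher and 0.386% lower over all rows. They were not tested against each other, and the group medians of the difference lay between -0.11 and 0.11.

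**Figure D4:**
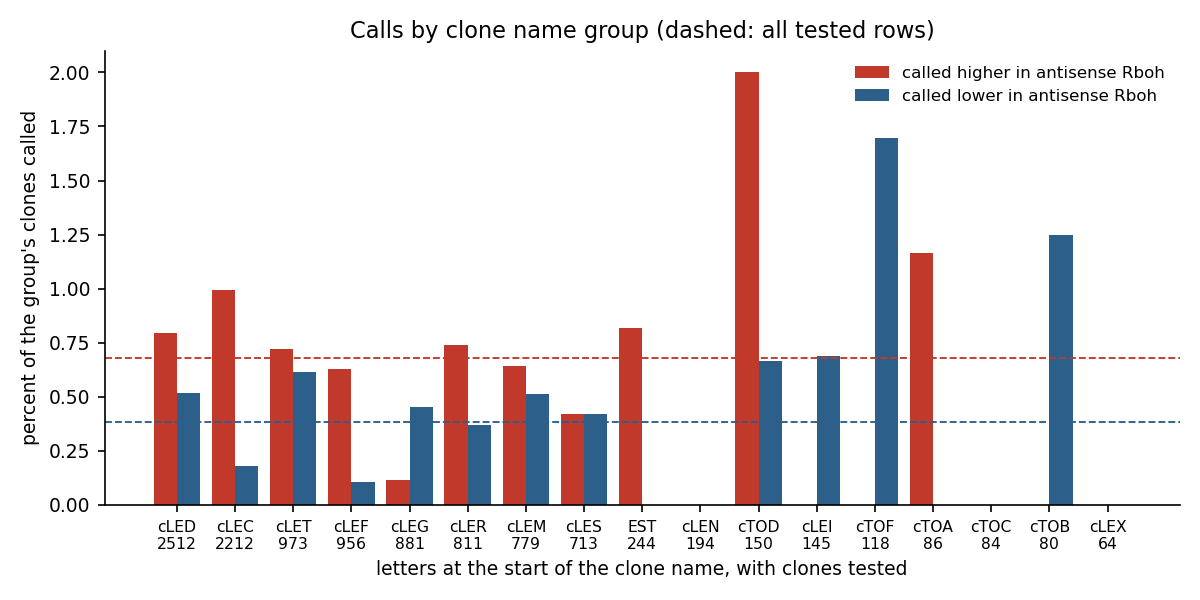
Percent of clones called higher (red) and lower (blue) in wounded antisense Rboh plants in each of the 17 name groups with at least 50 tested clones, ordered by size, which is printed under each name. Dashed lines mark the shares over all rows, 0.681% and 0.386%. The smaller groups rest on 0 to 4 calls each.

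The calls came from a part of the plates the clone names give. Of the 10898 tested clones with a plate in their name, 117 were called, from 60 of 450 plates. Of these calls, 87 were on the 30 plates that held 2 or more. The number of tested clones differed between plates, and the evenness of the calls was not tested. Plate 6 of the cLED clones held the most, with 6 higher and 1 lower among 338 tested clones, 2.07%. Plate 20 of the cLEC clones held 4 among 121, all higher, which is 3.31%. Over all clones with a plate in their name the share was 1.07%. Plates 6 and 20 were singled out after the counts were seen.

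The unwounded plants give the same comparison on arrays that share no leaf sample with the wounded ones, though every array carries the same pool. Across clones, the 2 mutant control arrays correlated at 0.31, and mutant control replicate 2 correlated at 0.45 with wild type control replicate 1. The remaining unwounded pairs of a mutant and a wild type array lay between -0.12 and 0.15. All 76 clones higher in the wounded mutant were also higher in the unwounded mutant by the group means, and all 43 lower clones were lower. Over all tested rows, the direction was shared by 70.5% of those higher and 72.2% of those lower in wounded plants. Of the clones past 2-fold that were not called, 232 of 244 higher and 111 of 121 lower ones shared it. The median unwounded difference was 1.25 for the 76, with a range from 0.17 to 3.13, and -0.89 for the 43, with a range from -0.02 to -3.13. The unwounded arrays did not overlap between the genotypes for 64 of the 76 (15.1% of all rows with the mutant higher) and for 25 of the 43 (14.1% with it lower). In a fit to all 10 arrays 40 clones were called higher (0.359%) and 15 lower (0.134%) in unwounded mutant leaves. Of the 76, 25 were among those 40, which is 32.9% of the first list and 62.5% of the second. Of the 43, 7 were among the 15, which is 16.3% and 46.7%. The spread of each clone in that fit rests also on the wounded arrays, which alone gave the 76 and the 43. The lists are therefore not independent, and their overlap is a description.

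**Figure D5:**
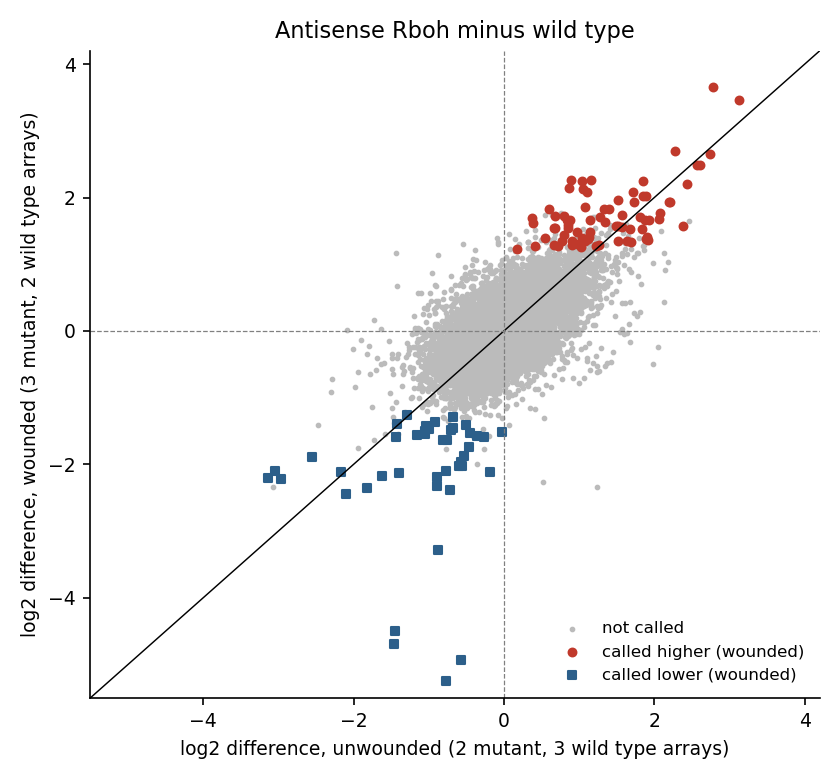
Log2 difference, antisense Rboh minus wild type, in unwounded plants (horizontal axis, 2 and 3 arrays) and in wounded plants (vertical axis, 3 and 2 arrays) for every tested row, with the line of equal differences. The clones called in wounded plants (circles higher, squares lower) all have the same sign on both axes. The 5 squares below -3 on the vertical axis lie between -1.47 and -0.58 on the horizontal axis.

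The pair of clones with the largest differences toward a higher mutant also differed between the genotypes without wounding. Clone cLED6G20 stood at 1.29 and 0.45 on the mutant control arrays of replicates 2 and 3, and at -2.18, -2.35 and -2.25 on the wild type control arrays of replicates 1 to 3, so that the unwounded means differed by 3.13 (SE 0.30, limma adjusted p = 0.0016). The values of cLED6A13 stood at 1.19 and 0.11 against -2.39, -1.60 and -2.38, a difference of 2.77 (SE 0.36, limma adjusted p = 0.00989). In both clones, all mutant arrays of either treatment were above the pool and all wild type arrays below it.

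The 5 clones at least 8-fold lower in the mutant than in the wild type had another pattern across the 4 groups. Without wounding, cLED4L7 stood at -4.97 and -3.63 in the mutant and at -4.92, -3.77 and -1.88 in the wild type, so that the genotypes overlapped below the pool. Its unwounded difference was -0.78 (SE 0.79, limma adjusted p = 0.70). Clone cLED11M5 stood at -4.40 and -3.84 in the mutant and at -4.67, -4.98 and -0.99 in the wild type, where replicate 3 stood apart from the other two wild type arrays. Its unwounded difference was -0.58 (SE 0.92, limma adjusted p = 0.821). For cLED4I5, cLED4L8 and cLED25O16 the unwounded differences were -1.47, -1.45 and -0.88, and none passed (limma adjusted p = 0.296, 0.225 and 0.507). In all 5, wild type control replicate 3 was the highest of the unwounded arrays. Only the 2 wounded wild type arrays, of all 10, lay above the pool in these 5 clones.

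Whether the genotype difference itself changed with wounding was tested as an interaction on all 10 arrays. By limma no clone passed, with a smallest adjusted p of 1.00. An unadjusted p under 0.05 was found for 266 clones (2.39%), fewer than the 557.6 that would be reached by chance. The interaction of cLED4L7 was -4.48 (SE 1.11, unadjusted p = 0.00155, limma adjusted p = 1.00), and that of cLED11M5 was -4.35 (SE 1.30, unadjusted p = 0.00551, limma adjusted p = 1.00). For cLED6A13 it was 0.89 (SE 0.51) and for cLED6G20 0.34 (SE 0.42), with adjusted p-values of 1.00 by limma. Under quantile normalization these became 1.98 (SE 0.56) and 1.36 (SE 0.49), with unadjusted p-values of 0.00366 and 0.0154 and adjusted p-values again of 1.00 by limma. Without mutant control replicate 2 they were 1.43 and 0.76, and without mutant control replicate 3 they were 0.35 and -0.08. Without wild type control replicate 3, cLED11M5 passed with an interaction of -5.63 (limma adjusted p = 0.0294), and no other clone did. Across clones, that array had a correlation of -0.33 with replicate 1 of the wounded mutant and of -0.43 with its replicate 3, and the part this plays in the interaction was not tested. The median interaction was 0.34 over the 76 higher and -0.82 over the 43 lower clones, beside -0.01 over all rows. These clones were chosen on the wounded arrays, which by itself draws the interaction toward the direction of the call, so the medians are a description.

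How many clones passed depended on single arrays. The count was 97 without mutant systemic wounded replicate 1, 242 without replicate 2 and 50 without replicate 3. Leaving out replicate 1 of the wounded wild type gave 4, and leaving out its replicate 2 also gave 4. Then 1 wild type array remains, which is assumed to vary like the mutant arrays. The 4 clones were cLED6A13 and cLED6G20, higher, and cLED4I5 and cLED25O16, lower, in both fits. Without one or the other wild type array cLED4L7 had an adjusted p of 0.0778 or 0.0671 by limma, with differences of -5.09 and -5.41. With each mutant array left out in turn, 46 of the 119 clones passed every time, 24 higher and 22 lower. When all 10 arrays shared 1 estimate of the spread, 75 clones passed (0.672%), 47 higher and 28 lower, and 73 of them were among the 119.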

How the data were processed

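Leaf RNA was measured on 10 two-colour cDNA arrays, and 5 of them entered the comparison. The deposited table holds log2 ratios made by the authors: between 99.9% and 100.0% of the values on the 5 arrays were the log2 of a ratio of 3 decimals, within 0.02 thousandths. Dyes, background correction, scaling between arrays and software are not given in the sources. Of 11347 rows, 193 marked as failed and 1 blank were left out, and 0 values were missing. Each array was centred on its median, and group means were compared by lmFit and eBayes of limma 3.58.1 under R 4.3.3 (3 residual and 7.21 prior degrees of freedom), with Benjamini-Hochberg adjustment over 11153 rows. The interaction and the unwounded differences came from a fit of 4 group means to all 10 arrays. The fit was also run on simulated data with independent noise on each array. That run cannot show whether the calls hold in the real data. At most 2 clones per direction were named, those of largest difference among called clones whose groups did not overlap, plus the 2 rows with a gene name; clones named otherwise are marked in the text. Gene lists covered Rboh oxidases, wound defence, jasmonate, oxidative stress, photosynthesis and markers of leaf, trichome, root and fruit, and were matched by name. The comparison, lists and naming rule were chosen with earlier results of these data known. Replicate numbers are those of the titles; the descriptions number the mutant controls 1 and 2 in place of 2 and 3. Alternatives were other centring and normalization, array weights, trend and robust eBayes, a replicate block, other thresholds, failed rows kept, clones at an array's commonest value left out, all 10 arrays in the fit, and each array left out. Plots used matplotlib 3.10.9.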

Additional observations from a re-analysis of the deposited data

How the results depend on the processing

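The count of 119 called clones became 297 at an adjusted p under 0.1 and 75 with all 10 arrays in the fit, and ran from 4 to 242 with an array left out. At another threshold the change follows from how the alternative is built. With only 1 wild type array left, the spread of that group is not measured. The causes of that change and of the remaining ones were not tested. Under the other 9 alternatives the count of called clones lay between 92 (quantile normalization) and 163 (array weights). A replicate block by title number gave 128 calls, 73 higher and 55 lower, 91 of them among the 119. Only a mutant array carries number 3, so the block takes it up and the difference rests on the arrays numbered 1 and 2. Fewer residual degrees of freedom then remain, and the spread rests more on that shared across clones. With the block the SEs of the 8 named clones that were called lay between 0.36 and 0.42, beside 0.26 to 0.54 in the main fit. The counts past 2-fold, 308 higher and 252 lower, equalled those without mutant replicate 3, where 50 clones were called. The title numbers were not taken to pair the arrays. Deviations from the group means correlated at -0.35 for the arrays numbered 1 and -0.11 for those numbered 2. With 2 wild type arrays these deviations mirror each other, so the same mutant arrays gave 0.35 and 0.11 with the other wild type array. Such values do not settle whether the arrays were paired. For the interaction, 0 called clones stayed 0 under every alternative (smallest adjusted p of 0.0532, with a replicate block by description number), and leaving out an array gave 0 to 1. With an array left out, the interaction of cLED6G20 ran from -0.085 to 0.758 and that of Carbonic_anhydrase from -0.065 to 0.308, each below 0 without mutant control replicate 3, and neither passed. No named difference in wounded plants changed sign. For the 8 named clones that were called, 1 of 72 values under other settings lost the call, that of cLER7J9, and 9 of 40 with an array left out did. With the failed rows kept, 2 of 193 passed, 1.04%, beside 1.06% of the clones. Intensities were not analysed here, so what signal over background limits is unknown.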
